A study of Arabidopsis thaliana with 8 samples.

Results

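The first 30 min of sulfate resupply were described by setting 30 min S seedlings against -S seedlings, which takes in 4 of the 8 arrays of the series. 30 min S stands for wild-type Arabidopsis seedlings, 9 days old, that had been starved of sulfate for 48 h and then sampled 30 min after 500 µM sulfate was put into the flask. -S stands for the starved seedlings with no sulfate returned. Both had grown for 7 days on 150 µM sulfate in 30 mL of liquid medium before the transfer to medium without sulfate, and both carry the same -S medium. Each condition was sampled once in each of 2 experiments, so n = 2 per condition and every ratio was formed within an experiment. Another 2 conditions of the same experiments, 3 h S (3 h after the same supply) and FN (full nutrition, 3 mM sulfate throughout), are used here only to place the early values. By the paper's recipes the -S medium also held less nitrate and ammonium than the FN medium and the 150 µM sulfate medium. A value set against FN therefore differs in nitrogen supply as well as in sulfate, and these were not told apart. Sulfate was given as its potassium salt to flasks that were opened and closed again. Some starved flasks were harvested at that time and others were opened with no supply, and which of these gave the -S arrays is not given in the sources used here. Cultures given KCl are not analysed here, so that sulfate, the added potassium and handling cannot be told apart.

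Plants take up sulfate through SULTR transporters, activate it with ATP sulfurylase (APS genes) and reduce it with APS reductase (APR genes) and then with sulfite reductase (SIR). The resulting sulfide is joined to O-acetylserine (OAS) to form cysteine, from which methionine, glutathione and the sulfur of glucosinolates derive. When sulfate runs short, transcripts of uptake and reduction accumulate, a small set of genes follows OAS (the OAS markers), and glucosinolates, which are sulfur-rich defence compounds of this plant family, are made less and broken down more. APS reductase is known as a main point of control over the flux through the pathway and as a transcript that answers quickly to sulfur supply.

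The values are MAS5.0 signals of whole seedlings on the ATH1 array, a linear intensity per probe set. The signal at the number of probe sets that the study counted as absent on an array was taken as that array's floor: 19.0 and 10.9 on the 30 min S arrays and 18.8 and 13.5 on the -S arrays of experiments 1 and 2. Of 22746 probe sets, 17138 reached the floor on at least 2 of the 8 arrays and were tested. The arrays had been scaled to a common level by the authors' software, and their medians were 46.3 and 47.6 (30 min S) and 45.8 and 46.8 (-S). The precision is limited by the number of arrays. In whole seedlings a lower signal can come from fewer cells that express a gene or from less RNA per cell, and these cannot be told apart. None of the 5 shoot markers listed has a probe set named here. The root marker *PYK10*, a beta-glucosidase of root endoplasmic reticulum bodies, had signals of 2701.2 and 2729.8 in 30 min S, against 3120.0 and 2962.9 in -S. The other root marker tested, the nitrate transporter *NRT2.1*, went the other way, with 444.6 and 89.3 in 30 min S, against 261.8 and 61.7 in -S.

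After 30 min of sulfate few transcripts were 2-fold lower or higher in both experiments, and those that stood lower belonged largely to sulfate reduction and to the OAS markers. Of the probe sets tested, 14 were at 0.5 of -S or less in both experiments, with -S at or above the floor (the consistent falls), which is 0.0817% of all tested. Another 10 were at 2 times -S or more in both, with 30 min S at or above the floor (the consistent rises), or 0.0583%. All 14 falls and all 10 rises had groups that did not overlap, but the 2-fold rule fixes most of that, and 13.5% of all probe sets tested had both 30 min S signals under both -S signals and 13% had both above. Of the 14 falls, 9 are in the lists of OAS markers, sulfate assimilation or glutathione, and none of the 10 rises is in any of the 20 lists examined. Most probe sets tested are in no list, so the absence of the rises from the lists carries little information. The lists were chosen with earlier results of these data known. Of the 14 falls, 8 are named only through the study's tables, so their membership describes the falls without independent support.

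The statistical test called fewer. A linear model on all 8 arrays (limma on log2(signal + 16), experiment as a block, adjusted by the Benjamini-Hochberg method) called 1 probe set lower at an adjusted p under 0.05 (0.00583% of those tested) and 0 higher. At an unadjusted p under 0.05 in this model, 223 were lower and 286 higher. Together these are fewer than 0.05 of the probe sets tested, the share that limit would pass if none differed. This fit draws its spread from all 4 conditions. When fitted to the 30 min S and -S arrays alone it called 10 lower (0.0583%) and 0 higher, and all 10 are among the 14 consistent falls. Both fits compare the same signals and differ in the estimated spread. The second has 1 residual degree of freedom and leans on a prior of 7.88, against 3 and 3.99 in the first.

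Few of the 2-fold changes of an experiment were shared by the other. By the 2-fold rule in 1 experiment alone, 251 probe sets stood lower and 344 higher in experiment 1, against 76 and 85 in experiment 2. The 14 consistent falls are 5.58% of the falls of experiment 1 and 18.4% of those of experiment 2, and the 10 rises are 2.91% and 11.8%. The log2 ratios had an SD of 0.33 over the probe sets tested in experiment 1 and 0.19 in experiment 2, around medians of -0.02 and 0.01. Across probe sets, which are not independent replicates, the ratios of the experiments correlated with r = 0.23 as a description. Without the consistent falls and rises r was 0.20, so that most of this weak correlation lay outside them. Opposite 2-fold changes, a fall in experiment 1 and a rise in experiment 2, were found for 5 probe sets, and the reverse for 0. In each of these 5 the 30 min S signal of experiment 1 was below the floor.

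**Figure D1:**
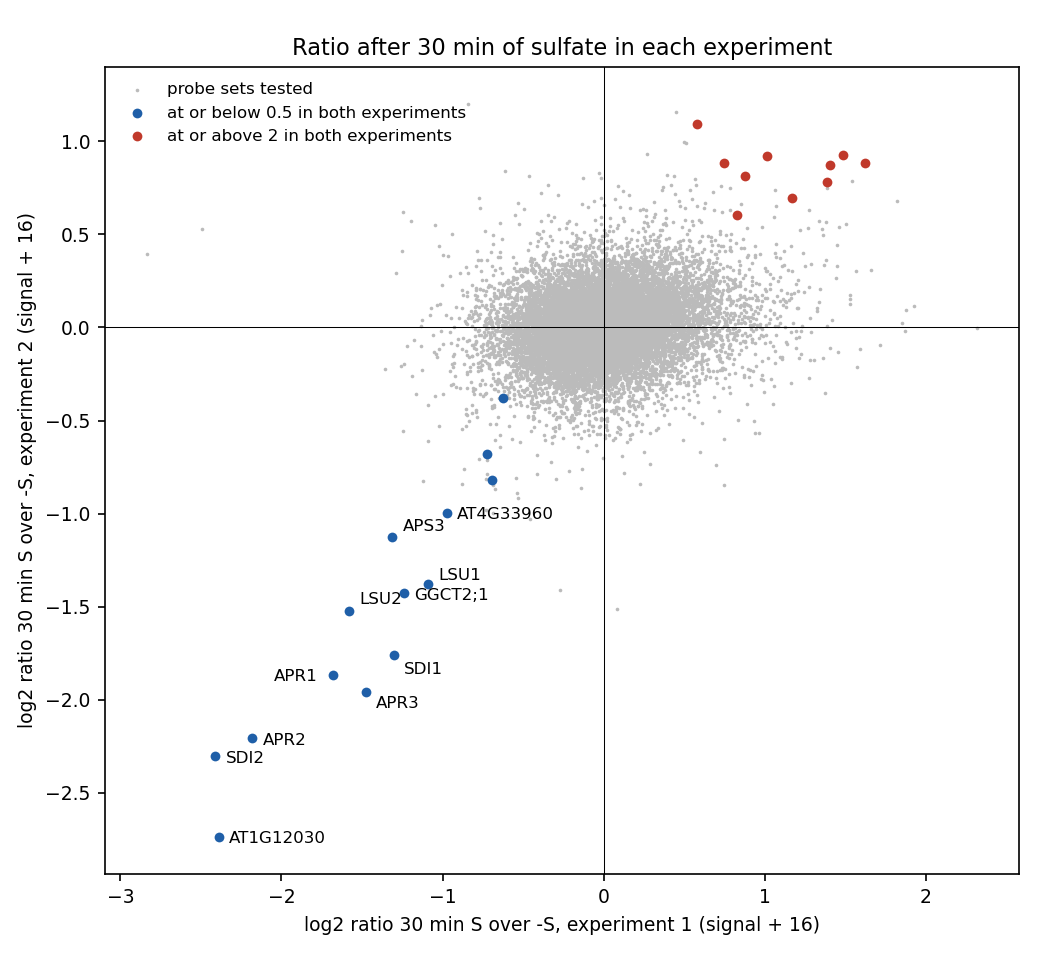
Each point is a probe set, with its log2 ratio of 30 min S over -S in experiment 1 on the horizontal axis and in experiment 2 on the vertical axis, both from signal + 16. The 14 consistent falls are blue and the 10 consistent rises red. The 11 falls that rank first are named and lie along the diagonal. The 2-fold rule itself places them low in both experiments. The last of them, *AT4G33960*, lies beside probe sets just outside that rule, such as *MYB28*. Experiment 1 spreads more widely (SD 0.33) than experiment 2 (0.19).

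All 3 APS reductase transcripts were among the consistent falls. *APR2*, the isoform that carries much of the leaf activity, had signals of 266.8 and 233.9 in 30 min S in experiments 1 and 2, against 1266.9 and 1138.1 in -S. Both 30 min values lay far under both -S values, at ratios of 0.211 and 0.206. It is the call of the fit on all arrays (log2 -2.19 ± 0.14, SE, limma, adjusted p = 0.0211), and in the fit on the 4 compared arrays its adjusted p was 0.00039. The call is lost without any one of the -S, 30 min S or 3 h S arrays, although the log2 value then stays between -2.22 and -2.17. It is also lost without the block (adjusted p = 0.0507), without the offset (0.257), without the filter (0.123) and in the methods' t-test after adjustment (1). After 30 min *APR2* was at 0.8 and 0.924 of the FN signal of its experiment, and at 3 h S it had 271.7 and 263.5.

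*APR1*, another isoform, had 534.8 and 429.8 in 30 min S, against 1752.1 and 1610.0 in -S. These are ratios of 0.305 and 0.267, with a log2 value of -1.77 ± 0.15 (limma, adjusted p = 0.0559 with all arrays and 0.00222 with the 4 compared). At 3 h S it stood at 498.4 and 505.3, close to its 30 min values and above FN (297.2 and 325.8). *APR3*, the third isoform, had 629.3 and 389.6 in 30 min S, against 1780.3 and 1557.2 in -S, at ratios of 0.353 and 0.25. Its value was -1.72 ± 0.37 (adjusted p = 0.999 with all arrays and 0.00558 with the 4 compared). Unlike *APR1* and *APR2* it had much lower signals at 3 h S (108.2 and 157.2) than at 30 min, with FN at 61.3 and 144.3.

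*APS3*, an ATP sulfurylase that activates sulfate for these reductases, had 139.8 and 118.6 in 30 min S, against 370.6 and 278.2 in -S. The ratios were 0.377 and 0.426 and the log2 value -1.22 ± 0.15 (limma, adjusted p = 0.286 with all arrays and 0.0219 with the 4 compared). By 30 min it was at 1.4 and 1.23 times FN. *APS4*, another isoform, did not share this. It had 121.8 and 122.1 in 30 min S, against 124.7 and 122.2 in -S (log2 -0.02 ± 0.13, and above 0 without either the 30 min S array of experiment 1 or the -S array of experiment 2), while FN was at 927.9 and 853.7. *SIR*, the sulfite reductase, had 356.1 and 379.7 in 30 min S, against 429.8 and 435.9 in -S (-0.23 ± 0.14), and *SERAT2;1*, a serine acetyltransferase that makes OAS, had 345.6 and 262.6 against 338.6 and 323.5 (-0.13 ± 0.20, above 0 without the 30 min S array of experiment 2). The list of sulfate assimilation and cysteine synthesis has 20 genes, of which 7 have a probe set named here, 4 of them only through the study's tables, most of whose genes were listed for a high -S signal. Of these 7, all tested, 1 was called lower, 0 higher, and 4 were consistent falls. Their median log2 value was -1.22, against -0.01 over all probe sets tested, and it has no independent support, since members entered in part through the condition in which they are high.

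The OAS markers shared their sign. All 8 tested had a lower signal in 30 min S in both experiments, which 28.7% of all probe sets tested did, and 6 were consistent falls. The median was -1.43 and 0 were called with all arrays. The list was chosen with earlier results of these data known. Of the 8, 6 are named only through the study's tables of starvation-raised genes. The direction of the list therefore has no independent support in these counts. *SDI2* had 185.7 and 144.1 in 30 min S, against 1056.4 and 774.4 in -S (ratios 0.176 and 0.186). Its log2 value was -2.36 ± 0.21 (limma, adjusted p = 0.0559 with all arrays and 0.000338 with the 4 compared). It is a relative of *SDI1*, a starvation-induced repressor of glucosinolate synthesis, which had 1550.3 and 848.6 in 30 min S, against 3847.1 and 2911.9 in -S. *SDI1* was thus at ratios of 0.403 and 0.291 (-1.53 ± 0.35, adjusted p = 0.999 with all arrays and 0.0112 with the 4 compared).

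*LSU2* and *LSU1* encode small proteins named for their response to low sulfur. *LSU2* had 852.7 and 673.3 in 30 min S, against 2578.9 and 1962.3 in -S, ratios of 0.331 and 0.343 (-1.55 ± 0.29, limma, adjusted p = 0.999 with all arrays and 0.00458 with the 4 compared). *LSU1* had 1035.5 and 661.2 in 30 min S, against 2223.2 and 1746.2 in -S, ratios of 0.466 and 0.379 (-1.24 ± 0.29, adjusted p = 0.999 and 0.0237). *GGCT2;1*, a cyclotransferase that breaks down glutathione in the cytosol, had 1176.3 and 757.2 in 30 min S, against 2799.1 and 2064.5 in -S, ratios of 0.42 and 0.367 (-1.33 ± 0.15, adjusted p = 0.137 and 0.0121). At 3 h S its signals were 97.2 and 48.4. The related *GGCT2;2* had 1068.5 and 1306.5 in 30 min S, against 1378.1 and 1344.8 in -S (-0.20 ± 0.19, above 0 without the -S array of experiment 1).

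The other 2 OAS markers were not consistent falls. *BGLU28*, a beta-glucosidase that can release sulfur from glucosinolates, had 2441.2 and 1995.3 in 30 min S, against 3271.6 and 2593.9 in -S (-0.40 ± 0.27, adjusted p = 0.999), and 86.0 and 25.0 at 3 h S. *SHM7*, a serine hydroxymethyltransferase, differed between the experiments, with 620.0 and 597.0 in 30 min S, against 752.7 and 1615.7 in -S (-0.84 ± 0.47). Its ratio was 0.824 in experiment 1 and 0.369 in experiment 2, and the fit gave -0.08 when the 30 min S array of experiment 2 was left out, and -1.61 when that of experiment 1 was.

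By the smaller of its 2 log2 ratios, a gene of no known role ranked first among the falls. *AT1G12030*, for which the study's table gives a hypothetical protein, had 433.0 and 260.0 in 30 min S, against 2335.0 and 1823.4 in -S, ratios of 0.185 and 0.143. Its log2 value was -2.56 ± 0.25 (limma, adjusted p = 0.0727 with all arrays and 0.000338 with the 4 compared). At 30 min it was still 12.2 and 17.6 times the FN signal. *AT4G33960*, which the study lists among its transcription factors, had 136.7 and 185.9 in 30 min S, against 283.9 and 386.8 in -S, ratios of 0.482 and 0.481 (-0.99 ± 0.14, adjusted p = 0.44 with all arrays and 0.0731 with the 4 compared). Here experiment 2 was the higher in both conditions, while the ratios are nearly equal.

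The other 3 consistent falls had signals near the floor. *AT1G05575* had 23.1 and 20.1 in 30 min S, against 47.2 and 47.6 in -S. *TT12*, a transporter of flavonoid precursors known from the seed coat, had 6.5 and 10.2 in 30 min S, both below the floor, against 21.1 and 25.9 in -S, so that it was at least 1.11-fold and 2.38-fold lower against the floor. *AT5G50140* had 6.7 and 6.8, also below the floor, against 19.0 and 13.7, and the floor leaves at least 1-fold and 1.26-fold. When each signal under the floor was set to the floor, 12 of the 14 falls passed, and with 16 added to each signal 10 passed.

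If a signal is read as proportional to transcript and the drop as an even one over the 30 min, the ratio of *APR2* amounts to a halving every 13.3 and 13.1 min in experiments 1 and 2. The same arithmetic gives 12 and 12.4 min for *SDI2*, 12.3 and 10.7 min for *AT1G12030* and 21.3 and 24.4 min for *APS3*. The signals of *APR2* were no lower at 3 h S (271.7 and 263.5) than at 30 min (266.8 and 233.9). Its drop may thus have ended before 30 min, which was not sampled, and the halving would then have been faster.

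**Figure D2:**
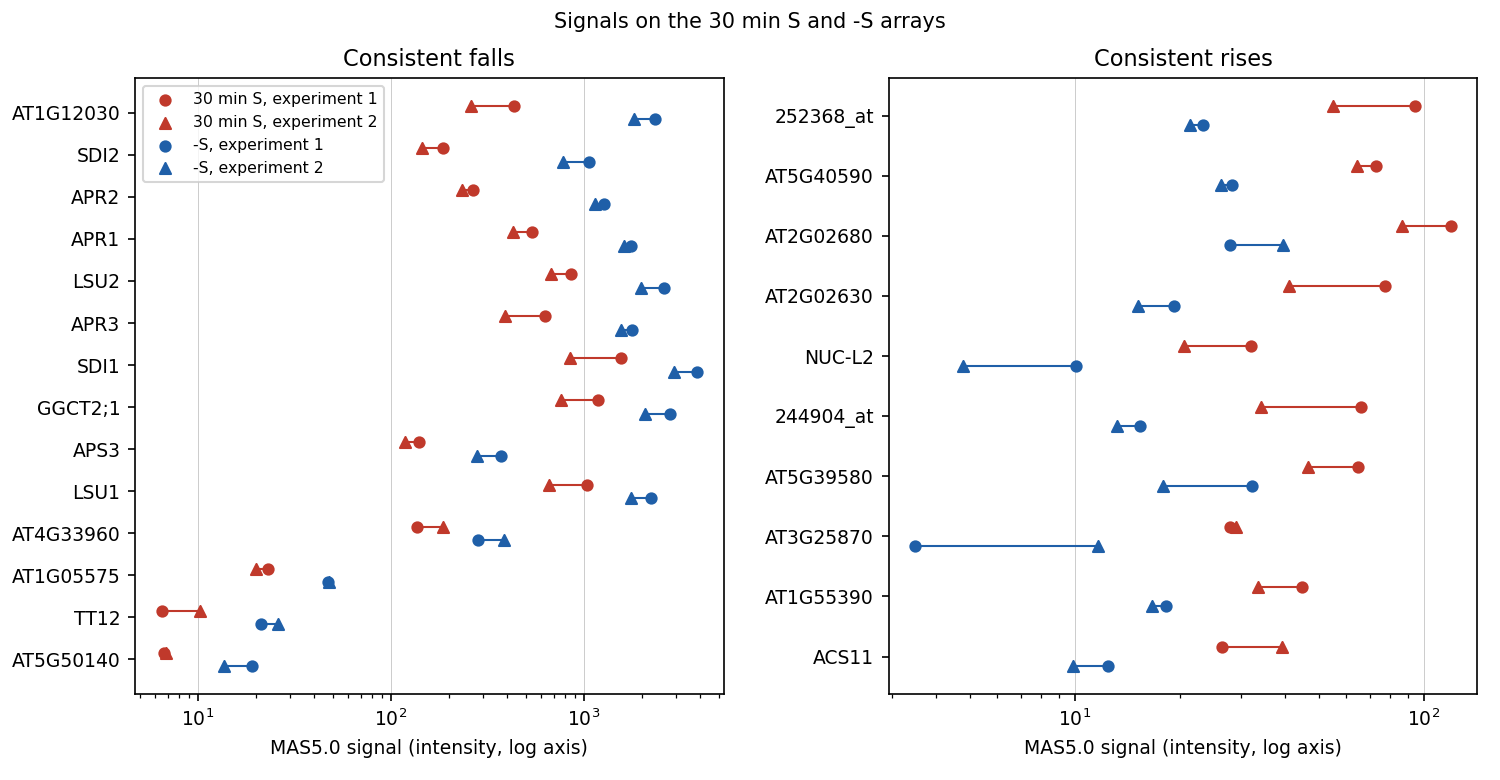
MAS5.0 signals (log axis) of the 14 consistent falls and the 10 consistent rises, with the 30 min S arrays in red above the -S arrays in blue, circles for experiment 1, triangles for experiment 2 and a line joining the pair of a condition. In each row the red pair and the blue pair do not overlap, and the rises all have 30 min S signals between 20.6 and 119.4.

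Of 12 sulfate transporters listed, 8 have a probe set named here, and 7 were tested, all of them named only through the study's tables. Of the 7 tested, 0 were called and 0 passed the 2-fold rule, and 5 were lower in both experiments (28.7% over all probe sets tested), with a median of -0.25. *SULTR1;2*, the main importer of sulfate from the root surface, came nearest to a fall, with 1134.7 and 756.7 in 30 min S, against 1653.3 and 1413.1 in -S. Its value was -0.71 ± 0.15 (limma, adjusted p = 0.999), and its 3 h S signals were 346.9 and 294.7. The high-affinity importer *SULTR1;1* had 319.6 and 432.2 in 30 min S, against 256.6 and 463.0 in -S (0.10 ± 0.17, below 0 without the -S array of experiment 1). *SULTR4;1* and *SULTR4;2* release sulfate from the vacuole. *SULTR4;1* had 314.5 and 237.8 in 30 min S, against 456.7 and 318.5 in -S (-0.46 ± 0.21), and *SULTR4;2* had 440.1 and 361.1 against 554.9 and 479.0 (-0.36 ± 0.22). *SULTR2;1*, which acts in the vascular tissue, had -0.21 ± 0.24 (above 0 without the -S array of experiment 1), and *SULTR2;2* had -0.25 ± 0.26. *SULTR3;4*, a transporter of the same family, had 80.6 and 41.5 in 30 min S, against 51.6 and 24.6 in -S (0.51 ± 0.35), and *SULTR1;3* was not tested, being under the floor on all arrays.

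Of 6 genes of glucosinolate breakdown, 4 have a probe set named here and were tested. All 4 had lower signals in 30 min S in both experiments, against 28.7% of all probe sets tested, 0 were called and 0 passed the 2-fold rule, and their median was -0.35. Of the 4, 3 are named only through the study's tables, which favours a lower ratio in experiment 1. *BGLU30*, a glucosidase related to *BGLU28*, had 2173.0 and 1430.2 in 30 min S, against 2953.5 and 2014.5 in -S (-0.46 ± 0.28), and 76.8 and 22.2 at 3 h S. *NSP5*, a nitrile-specifier protein that steers the breakdown products, had 1919.4 and 1837.6 in 30 min S, against 2519.7 and 2150.8 in -S (-0.31 ± 0.34), and the nitrilase *NIT3* had 898.0 and 707.3 against 924.7 and 1060.8 (-0.31 ± 0.19).

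**Figure D3:**
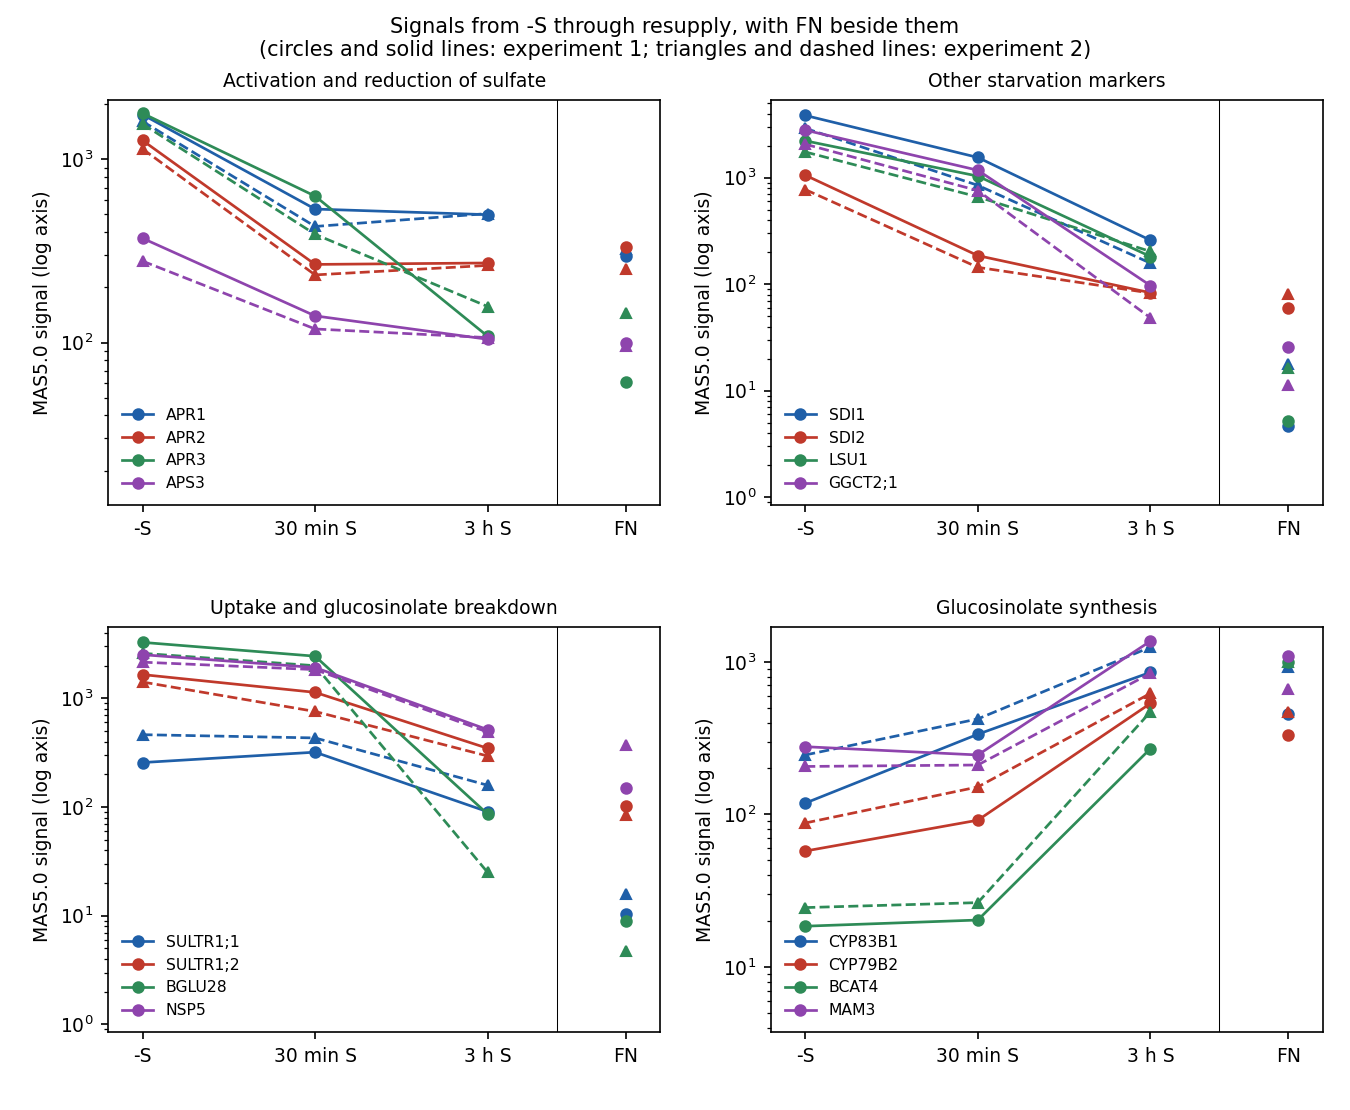
MAS5.0 signals (log axes) at -S, 30 min S and 3 h S, joined by lines for each gene and experiment, with the FN signals to the right of the upright line. *APR2* was at 266.8 and 233.9 at 30 min S and at 271.7 and 263.5 at 3 h S, *BGLU28* at 2441.2 and 1995.3 and then at 86.0 and 25.0, and *BCAT4* at 20.3 and 26.4 and then at 269.7 and 469.5.

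No gene of either branch of glucosinolate synthesis was called. The tryptophan-derived (indole) branch had all 5 tested genes higher in both experiments, which 27.6% of all probe sets tested were, and a median of 0.46. Of these 5, 4 are named only through the study's tables. Their log2 values of -S over FN were -2.23 (*CYP79B2*), -1.83 (*CYP83B1*), -2.74 (*CYP79B3*) and -0.75 (*SOT16*). Entry through a low -S signal would favour a higher ratio, since the -S arrays are shared, so the common direction has no independent support. *CYP81F2*, a further gene of the branch, did not reach the floor often enough to be tested. *CYP83B1*, which takes the oxime from tryptophan into indole glucosinolates, had 335.1 and 422.3 in 30 min S, against 118.5 and 245.1 in -S. These are ratios of 2.83 and 1.72 (1.07 ± 0.20, limma, adjusted p = 0.999), so the 2-fold limit was passed in experiment 1 alone. *CYP79B2*, which makes that oxime, had 91.6 and 151.3 in 30 min S, against 57.5 and 87.8 in -S (0.62 ± 0.15). *SOT16*, the sulfotransferase of the last core step, had 472.6 and 457.4 against 301.1 and 371.9 (0.46 ± 0.20). *MYB34*, an activator of this branch, had 154.8 and 209.5 in 30 min S, against 91.5 and 144.9 in -S (0.58 ± 0.20).

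In the methionine-derived (aliphatic) branch, of 14 genes tested, 6 were higher and 1 lower in both experiments, with a median of 0.08 and values between -0.23 and 0.42. The shares over all probe sets tested were 27.6% higher and 28.7% lower, and 11 of the 14 genes are named only through the study's tables. *BCAT4*, the aminotransferase that starts the elongation of methionine, had 20.3 and 26.4 in 30 min S, against 18.5 (below the floor) and 24.5 in -S (0.07 ± 0.20). *MYB28*, a main activator of this branch, lay just outside the 2-fold rule on the other side, with 98.9 and 125.6 in 30 min S, against 195.7 and 238.0 in -S (ratios 0.505 and 0.528, -0.86 ± 0.23, limma, adjusted p = 0.999). At 3 h S it was at 175.3 and 187.6. *AT4G33960*, at 0.482 and 0.481, lies just inside the same limit. The values of the branches overlap, and the difference between them was not tested.

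A list of transcription factors that the study names as responsive to starvation, to which *SLIM1*, the known regulator of the starvation response, was added, had 20 tested members. *MYB29*, which the study also names, was counted with the MYB activators of glucosinolate synthesis instead. It had 11.2 and 9.9 in 30 min S, against 8.3 and 10.1 in -S, all below the floor (0.08 ± 0.17). Of the 20, 0 were called, *AT4G33960* was the single consistent fall, 4 were lower and 6 higher in both experiments, and the median was 0.01. Among all probe sets tested, 28.7% were lower and 27.6% higher in both. *SLIM1* had 67.7 and 43.0 in 30 min S, against 41.1 and 47.5 in -S (0.22 ± 0.28, below 0 without the 30 min S array of experiment 1). *ARF12*, an auxin response factor, had 108.1 and 91.7 in 30 min S, against 29.1 and 58.0 in -S, ratios of 3.71 and 1.58 (1.00 ± 0.28, limma, adjusted p = 0.999), with FN at 400.4 and 305.6.

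**Figure D4:**
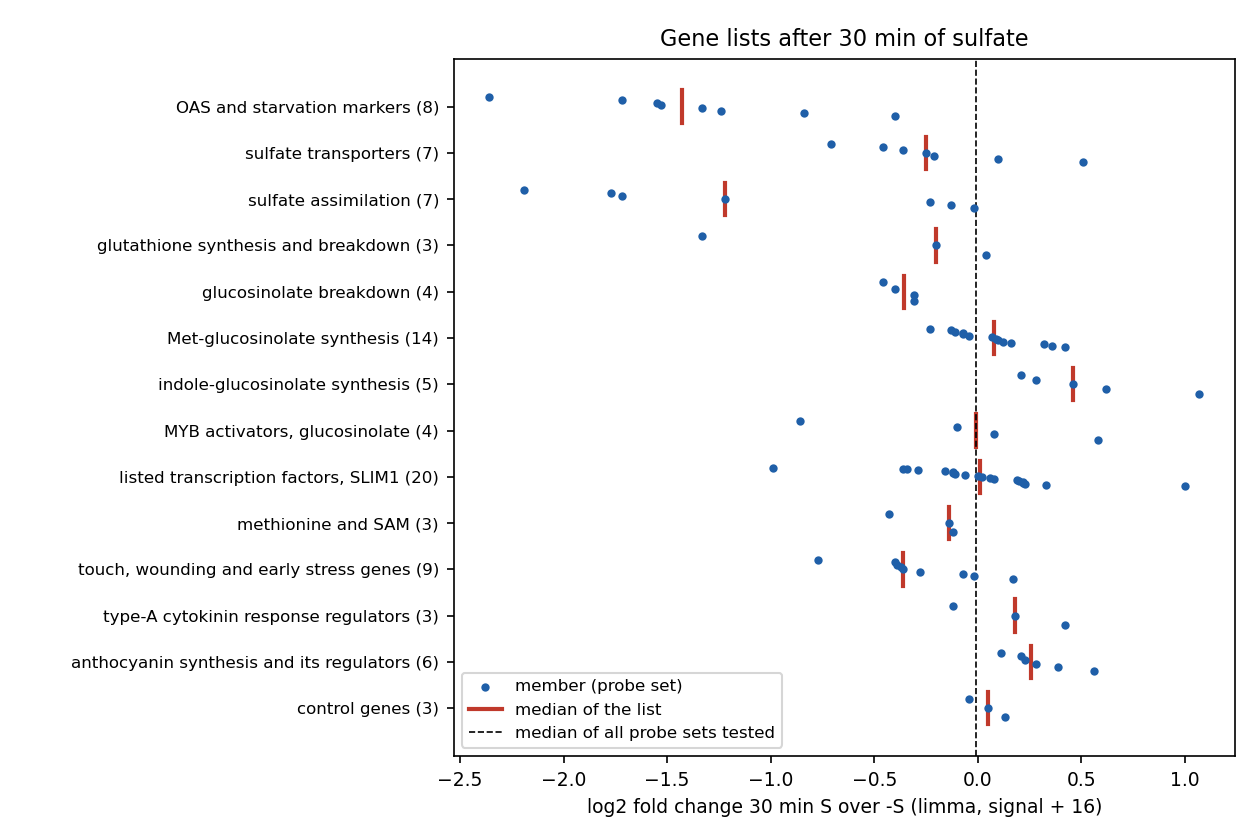
Log2 fold change of 30 min S over -S (limma, signal + 16) for each tested member (blue points) of the lists with at least 3 such members, the number in brackets, with the list's median as a red bar and the median of all probe sets tested, -0.01, as a dashed line. The OAS markers (median -1.43) and sulfate assimilation (-1.22) reach farthest to the left, and the indole-glucosinolate genes all lie right of 0.

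The consistent rises had 30 min S signals between 20.6 and 119.4. Of the 10, 8 have a gene named, 6 of these by locus only, and 0 were called by either fit. *AT2G02680* had 119.4 and 86.3 in 30 min S, against 27.9 and 39.4 in -S, ratios of 4.28 and 2.19 (1.25 ± 0.26, limma, adjusted p = 0.999 with all arrays and 0.0937 with the 4 compared), and 25.4 and 37.5 at 3 h S. *AT5G40590* had 73.1 and 64.2 in 30 min S, against 28.2 and 26.3 in -S (0.97 ± 0.15, adjusted p = 0.682 and 0.0811), and 16.4 and 20.2 at 3 h S. *AT2G02630* had 77.2 and 41.1 in 30 min S, against 19.2 and 15.2 in -S (1.14 ± 0.30), and 21.8 and 12.5 at 3 h S. For these 3 the 30 min S signals are the highest of the conditions in each experiment. The same holds for every other consistent rise but *NUC-L2*, which had 61.6 at 3 h S against 32.0 at 30 min S in experiment 1. The rule that picks the rises favours this.

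*AT5G39580* had 64.8 and 46.6 in 30 min S, against 32.2 and 17.9 in -S. *AT1G55390* had 44.8 and 33.5, against 18.3 (below the floor) and 16.6. The 2 probe sets with no gene named here had 94.2 and 55.1 against 23.3 and 21.4, and 66.1 and 34.1 against 15.4 and 13.2, with the last pair below the floor. *ACS11*, a synthase of the ethylene precursor, had 26.5 and 39.2 in 30 min S, against 12.5 and 9.9 in -S, both below the floor, so that it was at least 1.41-fold and 2.9-fold higher. *NUC-L2*, a nucleolin-like protein, had 32.0 and 20.6 in 30 min S, against 10.1 and 4.8 in -S, again below the floor (at least 1.7-fold and 1.53-fold higher). *AT3G25870* had 27.8 and 28.9, against 3.5 and 11.7 below the floor (at least 1.48-fold and 2.14-fold). A -S signal below the floor was found in 5 of the 10 rises, and with 16 added to each signal 0 pass the 2-fold rule.

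Transcripts known to answer to handling were also read. Of 9 touch, wounding and early stress genes tested, 6 were lower and 0 higher in both experiments, with a median of -0.36 and 0 called, while 28.7% of all probe sets tested were lower and 27.6% higher in both. Of the 20 genes of this list 10 have a probe set named here, and 6 of the 9 tested are named only through the study's tables. *ZAT10*, a stress-responsive zinc finger protein, had 90.6 and 51.0 in 30 min S, against 154.5 and 106.2 in -S (-0.77 ± 0.27, limma, adjusted p = 0.999). The pyruvate decarboxylase *PDC1*, a marker of low oxygen, had 42.2 and 34.7 in 30 min S, against 24.9 and 9.5 (the latter below the floor) in -S (0.75 ± 0.38). *NRT2.1*, a nitrate transporter of roots, had 444.6 and 89.3 in 30 min S, against 261.8 and 61.7 in -S (0.58 ± 0.86, below 0 without the 30 min S array of experiment 1). Genes of anthocyanin synthesis had a median of 0.25 with 0 of 6 called, 4 of them higher in both experiments. Their part in the results above was not tested. The other lists had no call in the fit on all arrays and few tested members: median values were -0.20 for glutathione synthesis and breakdown (3 tested, with *GGCT2;1* among them), -0.01 for the MYB activators of glucosinolate synthesis (4), -0.14 for methionine and S-adenosylmethionine (3), 0.18 for type-A cytokinin response regulators (3), 0.40 for nitrate uptake and reduction (2), 0.54 for hypoxia (2), 0.04 for early auxin response (2), 0.21 for root markers (2) and 0.05 for the clock (1). The control genes *UBC21*, *TUB6* and *GAPC2* had values of 0.05, 0.13 and -0.04, the last of which was 0.08 after quantile normalization.

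Just outside the 2-fold rule stood further genes that are high in -S, chosen here after their values were seen. *SIP1;2*, an intrinsic membrane protein, had 159.8 and 130.6 in 30 min S, against 304.3 and 232.1 in -S. *AT3G56200*, an amino acid transporter by the study's table, had 775.2 and 452.8, against 1297.7 and 910.7. *ESL1*, a sugar transporter, had 321.1 and 334.7, against 543.5 and 601.1. Each stood lower still at 3 h S, at 44.2 and 29.1 for *SIP1;2*, 247.2 and 116.4 for *AT3G56200* and 170.5 and 227.0 for *ESL1*. With the limit set at 1.5-fold, 62 probe sets were lower and 71 higher in both experiments. At 3-fold 4 were lower, *AT1G12030*, *SDI2*, *APR2* and *APR1*, and 1 was higher.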

How the data were processed

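The deposited table holds MAS version 5.0 intensities that the authors' software scaled per array (a 2% trimmed mean of 99.4 on each), on a linear scale, from 8 ATH1 arrays of whole seedlings. The study calls the experiments biological replicates. No genome build or scaling target is given in the sources used here, and the depth of an array is not a count. Each array's floor is the signal at its number of absent probe sets in the study's tables.

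Ratios of 30 min S over -S were formed within experiments with no offset. The fold rule is 0.5 or less, or 2 or more, in both experiments. The test was limma 3.58.1 in R 4.3.3 (lmFit, eBayes) on log2(signal + 16) of the 17138 probe sets that reached the floor on 2 of 8 arrays or more (5608 left out), with 4 conditions and the experiment as a block, two-sided, adjusted p under 0.05. The block follows the study's ratios. As a check, each condition's signal in experiment 1 minus that in experiment 2 was compared between conditions over probe sets, with r = 0.63 for 30 min S and -S (0.60 for 30 min S and 3 h S, 0.08 for 30 min S and FN, 0.71 for 3 h S and -S). The script was tested on simulated data. Python 3.11.15, pandas 2.3.3, numpy 2.4.6 and matplotlib 3.10.9 made the other tables and figures.

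Genes were named through the platform annotation and RefSeq (13513 of 22746 probe sets) and otherwise through the study's tables (807), 503 had several genes and 7923 stayed unnamed. Most of the 807 were listed for a high -S signal in experiment 1, which favours a lower ratio in that experiment, and 8 of the 14 consistent falls are among them. Named genes are those called, up to 15 falls and 15 rises by the smaller absolute log2 ratio, and list members with a role in sulfur metabolism or that define their list. The members and lists were chosen with earlier results of these data known. Alternatives were other sets of arrays, no block, other offsets, filters, normalizations and fold limits, the methods' t-test and each array left out. Promoter motifs were not run, since no sequence was at hand.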

Additional observations from a re-analysis of the deposited data

How the results depend on the processing

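The number of calls at 30 min changed with the arrays fitted, the block, the offset, the filter and the normalization. Against 1 lower and 0 higher with all arrays, limma called 10 lower on the 30 min S and -S arrays alone, 8 without the FN arrays, 2 with an offset of 64, 3 each with the floor required on all 4 compared arrays, with quantile normalization or with median centring (*APR1*, *APR2* and *SDI2* in each of these 3 fits), and 0 without an offset, without the filter or without the replicate block. The higher count stayed at 0 in each of these fits. With single arrays left out, the lower count ran from 0 to 8: it was 8 without either FN array and 0 without any one of the others, where the 1 array left is assumed to vary like the other groups. The methods' t-test called 0 after adjustment, and 142 lower and 110 higher at an unadjusted p under 0.05. The 142 and 110 together are a smaller share than 0.05 of the 17138 probe sets tested, so they show no excess over that limit.

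The 14 consistent falls and 10 consistent rises became 62 and 71 at 1.5-fold, 4 and 1 at 3-fold, and 441 and 84 with no floor, while adding 16 to each signal left 10 falls and 0 rises. Signals below the floor raised to it left 12 and 7, quantile normalization 11 and 9, and median centring 14 and 8. In 1 experiment alone there were 76 to 251 falls and 85 to 344 rises. Of 1017 values of 54 named probe sets under the alternatives, 959 kept direction and side of the threshold, 37 gained a call, 10 lost it (all *APR2*) and 11 changed sign. Apart from *GAPC2*, at 0.08 after quantile normalization, the sign changed only with an array left out: *GGCT2;2* ran from -0.43 to 0.03, *SULTR1;1* from -0.07 to 0.28, *SULTR2;1* from -0.46 to 0.04, *APS4* from -0.07 to 0.04 (0.04 and 0.02 where positive), *SERAT2;1* from -0.39 to 0.13, *SLIM1* from -0.25 to 0.69, *NRT2.1* from -0.12 to 1.29, *TUB6* from -0.05 to 0.31 and *GAPC2* from -0.09 to 0.01. The causes were not tested. Signals near the floor limit the rises and 3 of the falls.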

Other observations

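Transcripts encoded in the plastid genome, a group picked after the values were seen, differed between the experiments. Over 69 such probe sets tested, the median log2 ratio of 30 min S over -S was 0.90 in experiment 1 and -0.02 in experiment 2, against -0.02 and 0.01 over all probe sets. In both experiments 30 of them were higher and 5 lower, and 0 were consistent rises. Over all probe sets tested, 27.6% were higher and 28.7% lower in both. *psbK*, a small subunit of photosystem II, had signals of 885.7 and 1637.3 in 30 min S, against 239.5 and 1015.5 in -S. At ratios of 3.7 and 1.61 it was higher in both experiments, unlike the median of the group in experiment 2.

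*GPT2*, a plastid translocator of glucose 6-phosphate also picked after its values were seen, stood above -S by 2.98 times in experiment 1, with signals of 1187.5 and 285.4 in 30 min S, against 398.2 and 158.9 in -S.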
